A study of Homo sapiens with 2 samples.

Results

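The CCND1 segment of 11q13.3, chr11:68900000-70600000 on hg19, held 370 of the 31950 chromatin loops listed for KYSE180 cells. A loop was a member when at least 1 of its bins started in these 1700 kb, and the segment had been chosen by the number of listed loops and their coverage there, so these numbers are a description and not a finding. KYSE180 is an established cell line of esophageal squamous cell carcinoma (ESCC). The cells had been transfected with a non-targeting siRNA and profiled by H3K27ac HiChIP in 2 libraries of 1 condition. In this assay, DNA ends that lie close in the nucleus are ligated, and the fragments that carry H3K27ac, a histone mark of active promoters and enhancers, are enriched before sequencing. The methods name the called loops active p63-associated loops, p63 being the transcription factor that governs squamous identity, and the authors then kept those with H3K27ac at both ends. The role of p63 in the calling is not given in the sources used here, so a bin without a loop is a bin without a loop in this list and not one shown to lack contacts. The authors deposited 1 list for both libraries, so no value had a replicate spread and no test across samples could be made.

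CCND1 encodes cyclin D1, the partner of the kinases CDK4 and CDK6 that drives cells out of the first gap phase of the cell cycle into DNA synthesis. The segment around it is a frequent target of amplification in squamous carcinomas of the esophagus and the head and neck. Active enhancers can contact a promoter over long distances along the chromosome, and HiChIP records such contacts between acetylated regions as loops. Copy number was not analysed here, so the word amplicon is background and not a measurement.

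The genes of the segment are known by their order along the chromosome. MYEOV lies on the lower side of CCND1. LTO1 lies on its higher side, followed by FGF19, FGF4 and FGF3, which encode fibroblast growth factors. ANO1, a calcium-activated chloride channel, FADD, an adaptor of death receptors, PPFIA1, a liprin that organises cell adhesion sites, and CTTN, which encodes the actin regulator cortactin, come next, and SHANK2, a scaffold protein, is the last. In RefSeq, whose assembly GRCh38.p14 is a different build, all 11 genes were found in this order. Only CCND1 was placed on the list, at chr11:69455873-69469242 on the plus strand, and no loop was assigned to another gene. Positions below are therefore given by bin and by distance from the 5′ end of CCND1, with negative distances toward lower positions.

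Each loop joined 2 bins of 2 kb, called anchors, and carried the number of contacts that joined them and the coverage of its first bin, the one at the lower position. The members used 154 of the 34902 anchors of the list. They carried 380 contacts (95% exact Poisson interval 342.7 to 420.2), and 362 of the 370 loops rested on 1 contact each. A count of 1 has an interval of 0.0253 to 5.57, so a single loop is a weak observation and the values below describe sets of loops. Intervals cover counting error only.

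At the CCND1 promoter, which was read over 1 kb on each side of the 5′ end and took in 2 bins, 17 loops with 17 contacts (Poisson interval 9.90 to 27.2) ended. Of these, 13 ran to lower positions and 4 to higher positions, 10 stayed within the segment and 7 left it. Each of the 17 loops had 1 contact. Of 57529 looped windows of the same size, 172 (0.299%) held as many loops, and in the segment 4 of 220 did. The promoter thus stood among the most looped windows of the list, a group of windows that need not be promoters.

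The nearest promoter partners lay on the higher side, in the bins chr11:69490001-69492000 and chr11:69504001-69506000, with spans of 36 and 50 kb. The next partner on that side was chr11:69820001-69822000, at 364 kb, and the farthest was chr11:70030001-70032000, at 576 kb. No promoter loop ended higher up in the segment than this bin. On the lower side the nearest partners were chr11:69368001-69370000 and chr11:69340001-69342000, at 86 and 114 kb, followed by bins at 206 and 252 kb. Both promoter bins were joined to the same bin, chr11:69048001-69050000, by separate loops of 406 and 408 kb.

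The promoter loops that left the segment all went to lower positions. Of these 7, 4 ended close to the lower edge, at spans of 562, 596, 640 and 644 kb, and the others spanned 912, 1210 and 4648 kb. Across all 17 loops the median span was 408 kb, 3 spanned less than 100 kb, and 2 spanned at least 1 Mb. The loops had 16 distinct other bins. Of the 119 pairs of these bins that lay at least 10 kb apart, 0 were themselves joined by a loop. If a count of 0 is taken to allow up to 3, this allows a share of up to 2.52%. Over the list, 11.6% of anchor pairs were joined at 10 to 50 kb and 3.95% at 50 to 200 kb. The shares were 0.974% at 200 kb to 1 Mb and 0.120% at 1 to 5 Mb. Most pairs are thus not listed at this depth, and whether 0 of 119 is fewer than the list gives was not tested.

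**Figure D1:**
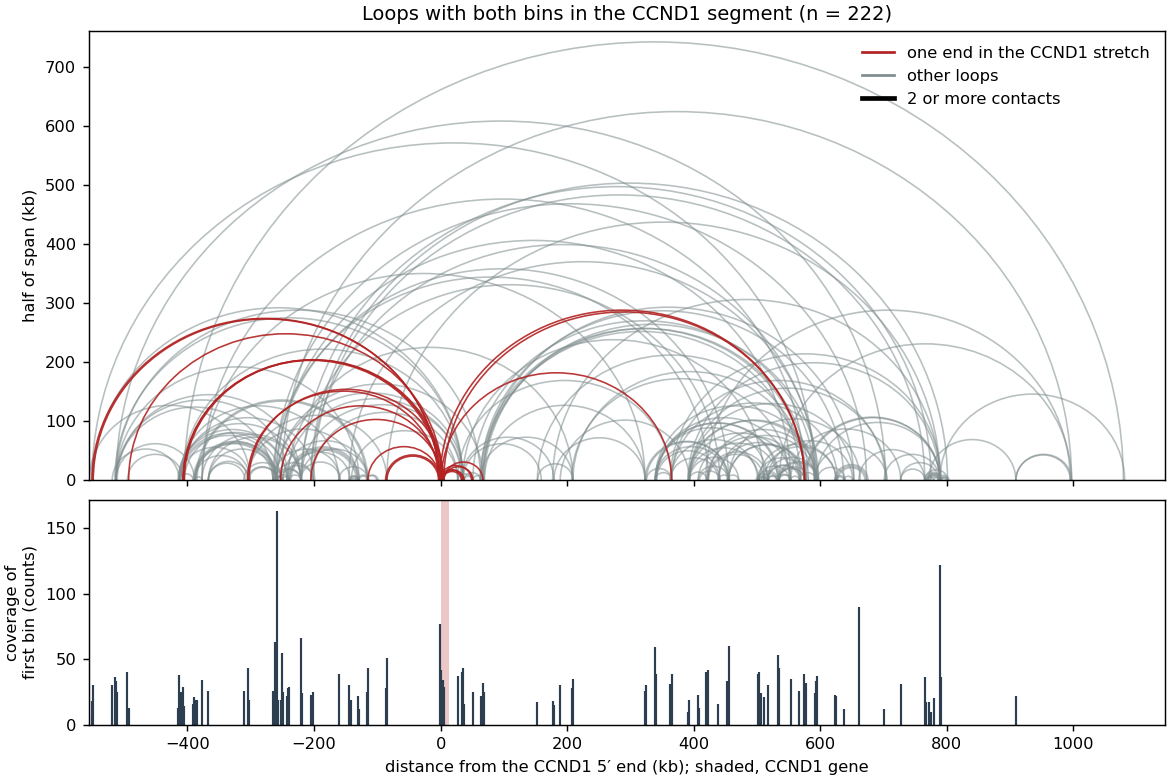
Upper panel, the 222 loops within the segment as arcs against distance from the CCND1 5′ end in kb (red, 1 end in the CCND1 stretch; grey, other loops; thick, 2 or more contacts), with arc height equal to span divided by 2 in kb; lower panel, coverage of the first bins in counts with the gene shaded. The red arcs fan out to both sides, 13 to lower and 9 to higher positions, and the highest coverage, 163, lies at -258.9 kb.

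The loops at CCND1 were gathered at the 5′ part of the gene. The whole gene, 13370 bp long, had 27 loops with 27 contacts (Poisson interval 17.8 to 39.3), 18 to lower and 9 to higher positions. All of them ended in the bins up to position 69462000, and the 4 bins from 69462001 to 69470000, at the 3′ part of the gene, held 0 loops. The bin of the 5′ end, chr11:69454001-69456000, held 12 loops, and the bin before it held 6. The 3 bins after it held 5 loops each.

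These 5 touching anchors formed a stretch of 10 kb, chr11:69452001-69462000, with 33 loops to 31 distinct bins. Of the loops, 24 ran below and 9 above. The direction shifted along the stretch: the first bin had 6 loops below and 0 above, the bin of the 5′ end had 9 and 3, and the last bin had 2 and 3. As the last bins held 5 loops each, this shift rests on few loops. Of the 22628 stretches of the list, 42 (0.186%) held as many loops, against a median of 2 loops per stretch.

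One stretch of the segment held more loops than that of CCND1. It was chr11:69190001-69200000, starting at -265.9 kb from the CCND1 5′ end, also 10 kb long, with 34 loops. Both stretches had 11 loops that left the segment, and neither had a loop of 2 or more contacts. The median span was 272 kb at the lower stretch and 408 kb at CCND1. No loop joined the 2 stretches directly. The next stretches held 24 loops (chr11:70046001-70054000), 22 (chr11:69040001-69052000) and 19 (chr11:69488001-69494000).

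Coverage was listed for first bins only, which were 112 of the 154 anchors. Among these it was highest at that lower stretch. The bin chr11:69196001-69198000 had a coverage of 163, reached by 24 (0.111%) of the 21636 first bins of the list. The second was chr11:70244001-70246000, 788 kb above the 5′ end, with 122, reached by 52 first bins (0.240%). The bin of the CCND1 5′ end had 77, reached by 225 first bins (1.04%). The most covered first bin of the segment was therefore not at CCND1, although the bin chr11:69452001-69454000 of the CCND1 stretch had no listed coverage. The bin with a coverage of 90, chr11:70116001-70118000, had 3 loops only.

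The anchor with the most loops was the one at 788 kb, chr11:70244001-70246000. It had 13 loops with 18 contacts (Poisson interval 10.7 to 28.5), 11 to lower and 2 to higher positions. Its loops mixed close neighbours with distant bins. Within 30 kb it had 4 partners, and the other loops spanned 88 to 3828 kb. No loop joined it to the CCND1 stretch. The bin of the CCND1 5′ end followed with 12 loops, and 3 anchors had 11, at chr11:69196001-69198000, chr11:69234001-69236000 and chr11:69972001-69974000.

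Of the 154 anchors, 27 had 1 loop, 93 had 2 to 5, and 34 (22.1%, Wilson interval 16.3 to 29.3) had 6 or more. Over all anchors of the list the share with 6 or more was 3.05%. Anchors with a single loop made up 17.5% (12.3 to 24.3) in the segment and 59.4% (58.9 to 59.9) in the rest of the list. The segment was chosen for its loops, so this contrast restates the choice in another form. Touching anchors merged into 67 stretches, of which 15 were single bins and the longest was 12 kb.

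Few members had more than 1 contact. There were 8 (2.16%, Wilson interval 1.10 to 4.21), against 3.36% of all loops, a share within that interval. The loop with the most contacts joined chr11:70244001-70246000 to chr11:70256001-70258000, with 4 contacts (Poisson interval 1.09 to 10.2) over 12 kb. As many contacts were seen in 78 loops of the list. The same anchor took part in 3 of the 8 loops, those to chr11:70222001-70224000 and chr11:70226001-70228000 having 2 contacts each.

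The other multi-contact loops had 2 contacts each. They joined chr11:69216001-69218000 and chr11:69314001-69316000 to the same bin, chr11:69324001-69326000, over 108 and 10 kb. They also joined chr11:69956001-69958000 to chr11:69972001-69974000 over 16 kb, and chr11:70080001-70082000 to chr11:70128001-70130000 over 48 kb. The last one was long. It left the segment at its lower edge, joining chr11:68816001-68818000 to chr11:69958001-69960000 over 1142 kb. By class of span, 6 of the 66 members under 50 kb had 2 or more contacts (9.09%, Wilson interval 4.23 to 18.5), against 7.25% (6.75 to 7.78) in the rest of the list. Among the 108 members of 200 kb to 1 Mb there were 0 (Wilson interval 0 to 3.44%). The share in the rest of the list was 1.205%, within that interval, and from 65 Mb to the segment it was 0.229%.

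The members ran far. Their median span was 379 kb (95% interval 260 to 506), with quartiles of 96 and 1473 kb, against a median of 118 kb and quartiles of 36 and 392 kb in the rest of the list. In all, 115 members (31.1%, Wilson interval 26.6 to 36.0) spanned at least 1 Mb, against 11.7% of all loops. Loops within the segment had a median span of 127 kb, close to that of the rest of the list, although such loops cannot exceed the length of the segment. The 148 loops with 1 bin outside had a median of 1993 kb. Of the 115 members of at least 1 Mb, 110 left the segment. The rule fixes this in part, since a loop longer than the segment must leave it.

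Other places with many loops did not all have such spans. The genome was cut into tiles of 1.7 Mb and members were taken by the same rule in each. This is the closer comparison, since the rest of the list was not taken by the position of either bin. In the 80 tiles with at least 100 loops, the median span had a median of 160.5 kb. It ran from 44 to 535 kb, and 2 tiles reached the 379 kb of the segment. The share of loops of at least 1 Mb had a median of 15.3% and ran from 2.80 to 35.3%. For this share, 1 tile reached the value of the segment. The part of chromosome 11 from 65 Mb to the segment had 19.1% (17.1 to 21.2) of 1396 loops at 1 Mb or more, and chromosome 3 from 120 to 200 Mb had 12.5% of 2366.

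Nearly all loops that left the segment went to one side. Of the 148, 146 reached below and 2 above. The latter joined chr11:70048001-70050000 to chr11:70952001-70954000 over 904 kb and chr11:70230001-70232000 to chr11:72854001-72856000 over 2624 kb, with 1 contact each. Listed anchors were also unevenly spread. Within 5 Mb there were 647 anchors below the segment and 75 above it.

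The loops were also counted against the pairs of listed anchors at each distance. As only bins with a listed loop count as anchors, the loops themselves set which pairs are counted. At 2 to 5 Mb, 73 of 67447 pairs below were joined (0.108%, Wilson interval 0.0861 to 0.136) and 1 of 8308 pairs above (0.0120%, 0.00213 to 0.0682), with 0.0798% over the list. These intervals did not overlap, but pairs share anchors and so are not independent, and the intervals are too narrow for that reason. At 1 to 2 Mb, 36 of 14517 pairs below were joined (0.248%, 0.179 to 0.343) and 0 of 1819 above (0 to 0.211), and these intervals overlapped. At 200 kb to 1 Mb the shares were 0.677% (0.477 to 0.959) below and 0.405% above, the latter from 1 of 247 pairs. In these 2 classes the sides were not told apart at this depth.

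**Figure D2:**
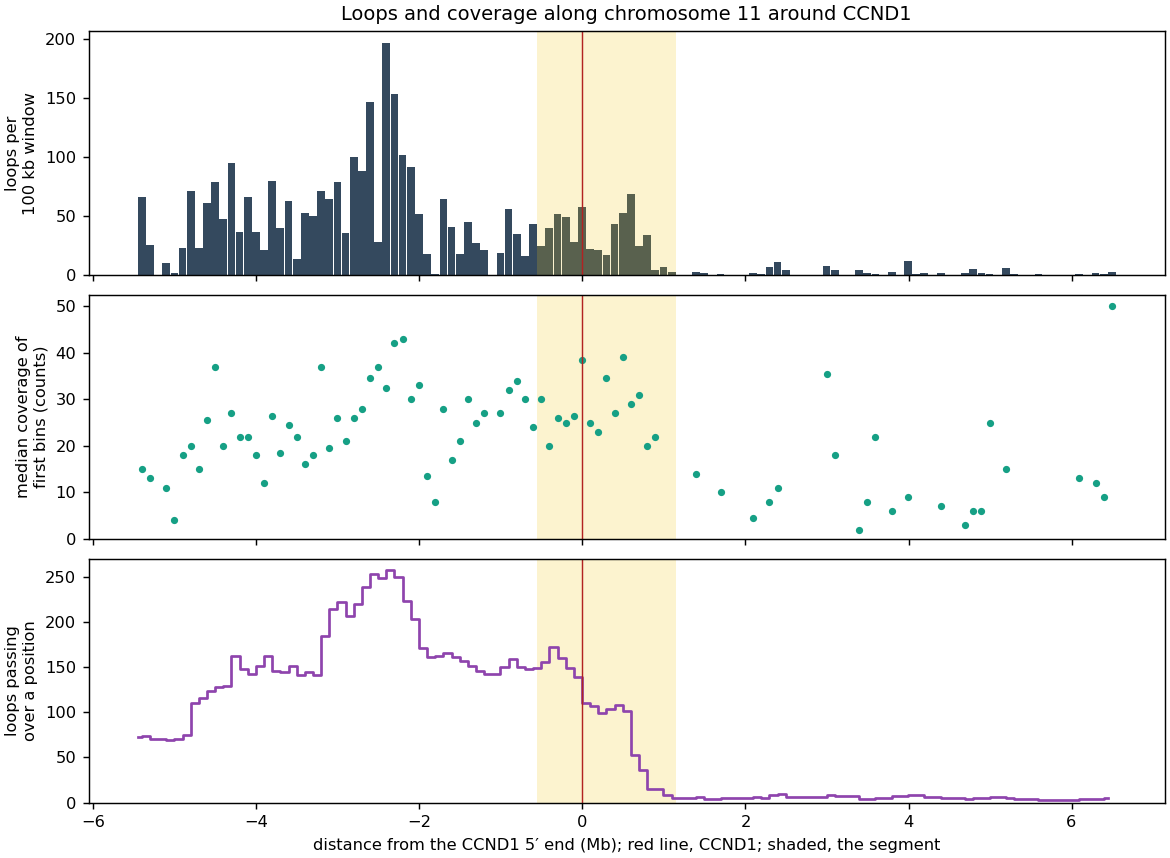
Loops per 100 kb window, median coverage of first bins, and the number of loops passing over each position, against distance from the CCND1 5′ end in Mb, with the segment shaded. Loops per window and coverage vary widely below the segment, with some empty windows, and the number of passing loops falls inside the segment from 101 at 70 Mb to 15 at 70.3 Mb.

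The edges of the segment were set by position, and the list ran on across the lower edge but was sparse on both sides of the upper edge. The last anchor below the lower edge, chr11:68898001-68900000, touched the first anchor inside, chr11:68900001-68902000, with 4 loops and 1 loop. At the upper edge the last anchor inside, chr11:70536001-70538000, and the next one above, chr11:70840001-70842000, lay 302 kb apart, with 1 loop each. The 1 Mb below the lower edge had 232 loops on 88 anchors, and the first 1 Mb inside had 267 on 98. The last 1 Mb inside had 203 loops on 80 anchors, and the 1 Mb above had 7 loops on 7 anchors.

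The decline to the upper edge lay inside the segment, after an earlier fall below it. The number of loops passing over a position was 257 at the start of chr11:67100001-67200000 and 142 at 68.4 Mb. It was 149 at 68.9 Mb, 172 at 69.1 Mb and 139 at 69.4 Mb, just below CCND1. It was 101 at 70 Mb, 53 at 70.1 Mb, 36 at 70.2 Mb and 15 at 70.3 Mb, and 5 (Poisson interval 1.62 to 11.7) at the upper edge. The fall inside the segment was steepest between 70 and 70.3 Mb, which is 544 to 844 kb above the 5′ end of CCND1. In the 3 windows of 100 kb from 70.3 Mb to the edge there were 4, 7 and 3 loops.

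The densest window of 100 kb was chr11:70000001-70100000, with 69 loops on 16 anchors. The window that holds CCND1, chr11:69400001-69500000, followed with 58 loops on 9 anchors. The CCND1 window thus had fewer anchors with more loops each. The windows that start at 69900001, 69100001 and 69200001 had 53, 52 and 49 loops.

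Coverage of the first bins of the segment had a median of 27 (95% interval 25 to 30), with quartiles of 19 and 37.3 over 112 bins and a range of 7 to 163. The rest of the list had a median of 12, a ratio of 2.25. The medians were also compared by the number of loops of a first bin, where only the classes of 1 and of 2 loops are matched in number. First bins with 1 loop had a median of 25 in the segment (49 bins) and 11 elsewhere, those with 2 loops 25 and 15, and those with 3 or more 36 and 25.

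The raised coverage was shared with the part of the chromosome below. From 65 Mb to the segment the median was 26 (24 to 28) over 437 first bins, a ratio of 1.04. The 5 Mb above the segment had a median of 9 (7 to 12) over 40 first bins, and the chromosome below 60 Mb had 10. On chromosome 3 from 120 to 200 Mb the median was 22. Extra copies of DNA and a higher density of active chromatin cannot be told apart from the coverage alone.

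Contacts were also counted against coverage. Per 100 units of first-bin coverage, the segment had 6.61 contacts (Wilson interval 5.84 to 7.48), the rest of the list 9.17 (9.08 to 9.26), the part from 65 Mb 9.79 and chromosome 3 from 120 to 200 Mb 6.16. First bins of the segment started 2.0 loops on average, against 1.47 in the rest of the list. The rest of chromosome 11 had 1.98, and the part from 65 Mb to the segment had more, 2.91. Only loops to higher positions enter these numbers, since the coverage of second bins is not listed, so they leave out the 146 loops that joined the segment to bins below it.

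Within the segment the anchors fell into 21 groups separated by gaps of at least 20 kb, a gap chosen after the positions were seen. Of the 222 loops within the segment, 62 stayed in a group and 160 joined different groups, and 70 of the 210 pairs of groups were joined. The loops were thus spread over many pairs. The largest group, chr11:69956001-70054000, had 21 anchors and 63 loops, 21 of them inside the group. The next, chr11:69190001-69258000, had 17 anchors and 62 loops, 10 inside.

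The most loops between 2 groups numbered 13, in each of 2 pairs of large groups. One joined chr11:69040001-69090000 to chr11:69190001-69258000, on the lower side of CCND1, and the other joined the largest group to its neighbour on the lower side. These are 6.37% of 204 and 4.76% of 273 possible pairs of anchors, and some pairs of smaller groups with fewer loops had higher shares. Spans were measured between bin starts, and the shortest in the list was 10 kb. The CCND1 group was identical to its 10 kb stretch, so it could hold no loop inside. It had 6 loops to chr11:69482001-69526000, directly on its higher side, which is 12.0% of the 50 possible pairs of anchors, and 3 each to the groups that start at -415.9 and -161.9 kb. It had 2 loops to each of 4 groups and 1 to each of 2, and no loop to the other 11 groups. These 11 include groups that start 152, 322 and 390 kb above, nearer than the largest group, as well as all 8 that start 622 kb or more above. The 3 nearer groups hold 9, 4 and 13 anchors. Over the list, 3.95% of anchor pairs were joined at 50 to 200 kb and 0.974% at 200 kb to 1 Mb. Few loops could thus be listed for these groups, and whether 0 is fewer than the list gives was not tested.

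Loops also passed over CCND1. Of the loops within the segment that did not end in its stretch, 28 ran from below it to above it. Ending in the stretch were 13 loops from below and 9 from above. Loops to bins below the segment numbered 2.2 per anchor in the CCND1 group and 2.0 in the group of 2 anchors that starts 362 kb above. They numbered 1.6 in the group that starts at -311.9 kb, 1.4 in chr11:69482001-69526000, 1.12 in chr11:69190001-69258000 and 0.810 in the largest group. Of the 33 loops of the CCND1 group, however, 11 left the segment, against 148 of the 370 members, so leaving loops were not a larger part there.

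**Figure D3:**
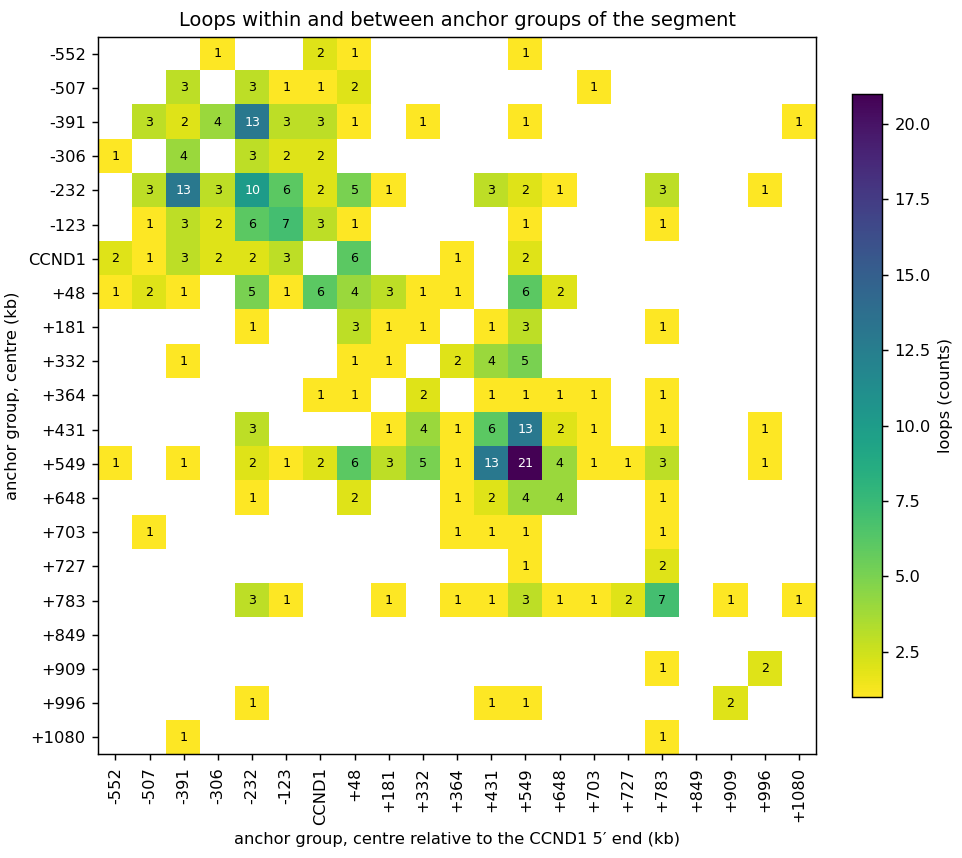
Number of loops that join each pair of the 21 anchor groups, ordered by position and named by the distance of the group centre from the CCND1 5′ end in kb; the diagonal gives loops within a group and empty cells stand for 0. The row of the CCND1 group ends at the largest group, and its diagonal cell had to be empty because no loop so short is listed.

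Set against the pairs of anchors at each distance, the share joined within the segment was about that of the list. Only bins with a listed loop count as anchors, so the loops themselves set which pairs are counted. Anchors with a single loop made up 17.5% in the segment and 59.4% in the rest of the list. Similar shares therefore do not show equal looping. At 10 to 50 kb, 62 of 652 pairs were joined (9.51%, Wilson interval 7.49 to 12.0), against 11.6% in the list. At 50 to 200 kb the shares were 3.51% (2.82 to 4.35) and 3.95%, and at 200 kb to 1 Mb they were 1.04% (0.828 to 1.29) and 0.974%. At 1 to 1.7 Mb, 5 of 1348 pairs were joined (0.371%, 0.159 to 0.865), against 0.247%. In every class the value of the list lay within the interval of the segment, so that a difference was not detectable at this depth.

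**Figure D4:**
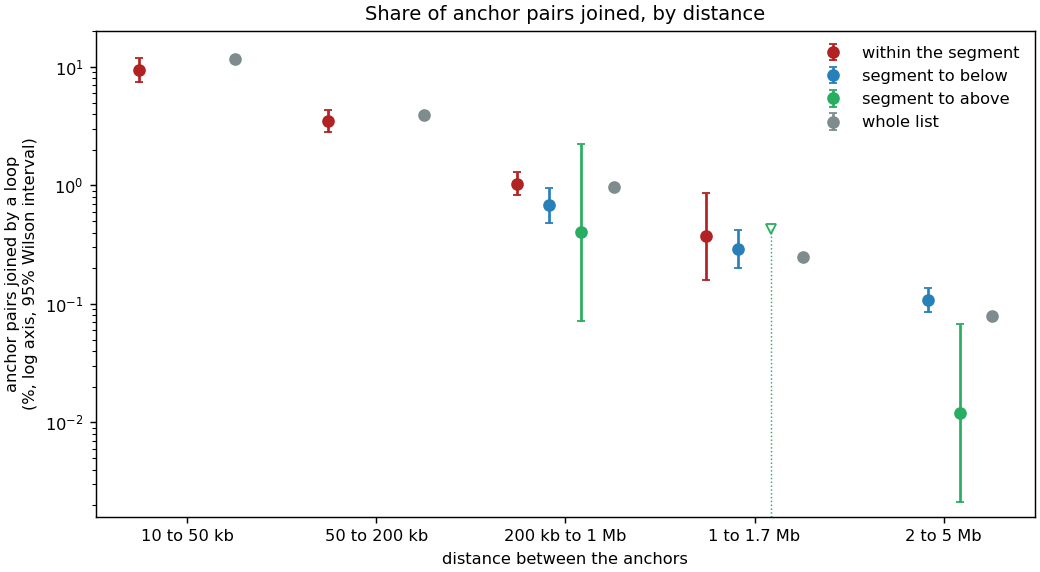
Percent of anchor pairs joined by a loop in each class of distance on a log axis, within the segment, from it to the bins below and above, and in the whole list, with 95% Wilson intervals; the open triangle is the upper limit where 0 pairs were joined. The shares fall with distance, and the value of the list lies within each interval for pairs inside the segment.

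The loops to lower positions reached 108 distinct bins below the segment from 91 of its 154 anchors. Of the 146 loops, 67 ended within 1 Mb of the lower edge and 109 spanned at least 1 Mb. The bin with the most was chr11:68890001-68892000, next to the edge, with 5 member loops of its 11 and a coverage of 86. Next were chr11:68588001-68590000 and chr11:68816001-68818000 with 4 each, the latter holding 4 of its 6 loops with the segment. One of these 4 is the loop of 1142 kb with 2 contacts.

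Several distant bins took up 3 member loops each. They started at 65818001, 66886001, 67006001, 67158001 and 67350001. The bin at 66886001 had 27 loops in all and a coverage of 147, so its loops with the segment were a small part of its own. Per 100 listed anchors, member loops numbered 104.5 between 68.5 and 68.9 Mb, 48.7 between 68 and 68.5 Mb and 26.7 between 67.5 and 68 Mb. They numbered 29.0 between 67 and 67.5 Mb, and fell through 20.7, 12.8 and 8.07 to 5.95 between 65 and 65.5 Mb. The next 2 windows down, from 64.5 and from 64 Mb, had 6.25 and 2.22. The longest span in the list was 5000 kb, so bins of the lowest windows could reach only a part of the segment.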

How the data were processed

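The data are 2 H3K27ac HiChIP libraries of KYSE180 cells that received a non-targeting siRNA, the only condition. The authors used HiC-Pro for the reads and FitHiChIP (Peak-To-All) for loops that the methods name active and p63-associated, removed those with an end that lacked H3K27ac, and deposited 1 list of raw counts without normalization. The submitters' processing notes name hg19. Versions, thresholds and how libraries were pooled are not given in the sources used here. Columns were read as contacts and first-bin coverage from the column order of FitHiChIP and because contacts exceeded coverage in 0 of the 21636 first bins. The list has no score. First-bin coverage summed to 368661, which is not the library depth.

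The segment and the lists were chosen with earlier results of these data known. Only CCND1 was to be given values unless a gene annotation of hg19 was at hand, and its position was taken as stated with the segment. The 10 other genes are named by order. An hg19 genome was not used here, so no sequence is printed and promoter motifs were not run.

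Members had at least 1 bin start in the segment. Touching anchors were merged. Shares have 95% Wilson intervals, counts exact Poisson intervals, and medians binomial order-statistic intervals. No replicate spread and therefore no test exists. Scripts were tested on simulated data. Alternatives were other windows, member rules, minimum spans of 20 kb, at least 2 contacts, and other comparison sets. The tools were matplotlib 3.10.9, scipy 1.17.1, pandas 2.3.3 and numpy 2.4.6 under Python 3.11.15.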

Additional observations from a re-analysis of the deposited data

How the results depend on the processing

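Of 38 alternatives to 12 values, 18 kept the value and 20 moved it. A count was taken as kept within 1.5 times, and the coverage ratio, the share and the median span within their 95% intervals. No paired analysis was possible because the deposited list merges the 2 libraries of the only condition, which also kept a library from being left out. With both bins required in the segment, 222 of 370 loops remained and their median span was 127 in place of 379 kb. With at least 2 contacts, 8 loops remained, with a median span of 20 kb, 1 that left the segment and 0 at the CCND1 promoter and gene, 3 at the most connected anchor and in the densest window, and 11 stretches in place of 67. The promoter count of 17 became 33 with a window of 5 kb, and the gene count of 27 became 10 without the promoter window. The coverage ratio of 2.25 was 2.0 with each loop counted once and 1.8 against the rest of chromosome 11. The densest window of 69 loops became 106 at 200 kb and 16 when anchors were counted. Chosen after seeing the data, gaps of 30 and 40 kb gave 13 and 10 groups in place of 21, and an upper edge 100 or 200 kb lower was crossed by 8 or 15 loops in place of 5. These changes follow from the sets of loops or bins each alternative keeps or compares with, except for the coverage ratio of 2.0, for which the cause was not tested. The ratio of 1.8 follows from a median of 15 in the rest of chromosome 11, against 12 in the rest of the list. The main limit is depth: 362 of 370 members rest on 1 contact. The promoter motif shares were not run.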
